A study of Homo sapiens with 42 samples.

Results

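The glycoprotein Ib-IX-V complex is the platelet receptor for von Willebrand factor, and its 4 subunit genes lie apart in the genome, on chromosomes 17, 22 and 3. Chromatin loops at these loci were taken as all loops with the start of at least 1 anchor in a window around GP1BA (chr17:4700000-5150000), GP1BB (chr22:19500000-19950000), GP9 (chr3:129010000-129300000) or GP5 (chr3:194150000-194650000), in hg38. These windows held 37 of the 33914 loops in the table: 10 at GP1BA, 9 at GP1BB, 5 at GP9 and 13 at GP5. Within a window the loops were taken by position, with no limit on their contact counts. The members were, however, chosen with earlier results of these data known.

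The loops were measured by in situ Hi-C in wild-type K562 cells, an assay that joins neighbouring pieces of crosslinked chromatin by ligation and counts which positions were joined. K562 is an established human chronic myeloid leukemia line, a single aneuploid cell line, that takes on megakaryocyte features when treated with the phorbol ester PMA, an activator of protein kinase C. The groups were cells before PMA (0 h) and after 6 h and 72 h in 25 nM PMA, with medium changes during the longer course. Each group had 14 deposited samples, 42 in all, which come from 4 biological replicates per time point. The labels do not say that the replicates were grown as separate cultures, so the p-values measure the spread between these libraries, part of which may be technical.

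Summed over technical replicates, the 12 libraries held from 736929 to 1472197 contacts over all loops. The values below are normalized contact counts, that is contacts between the anchors of a loop, each 10 kb wide, per 1000000 contacts of the library in the tested loops, after scaling. No local background is subtracted, so a count holds the loop and the ordinary contacts of that pair of positions. Libraries 3 and 4 of 72 h differed over the 24132 tested loops by no more than counting noise (chi-square statistic over its degrees of freedom, 1.00) and were counted as 1 sample in every mean, so that n = 4 at 0 h and 6 h and n = 3 at 72 h. Libraries 3 and 4 were also close at 0 h (1.02) and at 6 h (1.02), where they were kept as separate samples. All other pairs within a time had 1.06 to 1.27. The main edgeR fit held all 12 libraries. Its standard errors and p-values at 72 h thus count libraries 3 and 4 as separate samples, unlike the means. Gene expression was not measured in these files, and no marker of the cells can be read from them.

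The complex works as a tether. The alpha chain of glycoprotein Ib (GP1BA) carries the binding site for von Willebrand factor and slows platelets at a wounded vessel wall under high shear. The beta chain (GP1BB) is joined to it by disulfide bonds, glycoprotein IX (GP9) is needed for the complex to reach the cell surface, and glycoprotein V (GP5) is a thrombin substrate that is held more loosely. Loss of GP1BA, GP1BB or GP9 causes Bernard-Soulier syndrome, a bleeding disorder with giant platelets, whereas loss of GP5 does not. The genes are expressed late in the megakaryocyte lineage, under factors of the GATA and ETS families. Chromatin loops, many of them held by CTCF and cohesin, bring distant positions of a chromosome into contact and set which promoters and enhancers share a domain.

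The RefSeq promoter table (GRCh38.p14) held 3 of these genes, GP1BB, GP9 and GP5, and the 250 bases before each transcription start are shown to place the genes' starts against the loop anchors and because GATA and ETS factors are known to act on these genes. Capitals mark the core letters of a GATA site (GATAA, or TTATC on the opposite strand) and of an ETS site (GGAAG, or CTTCC on the opposite strand). Both strands were searched, and the letters of the 2 motifs do not overlap each other in these windows. Each sequence runs 5′ to 3′ on the strand of its gene, which is plus for GP1BB (chr22:19723289-19723538) and GP9 (chr3:129060529-129060778) and minus for GP5 (chr3:194399267-194399516).
GP1BB: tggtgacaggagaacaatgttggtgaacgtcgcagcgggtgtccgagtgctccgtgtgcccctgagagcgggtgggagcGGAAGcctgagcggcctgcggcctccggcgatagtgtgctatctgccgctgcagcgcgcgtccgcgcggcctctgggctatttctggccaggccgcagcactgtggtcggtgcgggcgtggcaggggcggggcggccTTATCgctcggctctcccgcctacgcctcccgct
GP9: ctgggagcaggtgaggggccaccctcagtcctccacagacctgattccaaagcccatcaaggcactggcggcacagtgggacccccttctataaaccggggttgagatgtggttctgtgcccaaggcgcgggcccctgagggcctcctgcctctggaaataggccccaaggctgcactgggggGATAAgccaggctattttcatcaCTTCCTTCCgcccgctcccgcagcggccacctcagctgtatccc
GP5: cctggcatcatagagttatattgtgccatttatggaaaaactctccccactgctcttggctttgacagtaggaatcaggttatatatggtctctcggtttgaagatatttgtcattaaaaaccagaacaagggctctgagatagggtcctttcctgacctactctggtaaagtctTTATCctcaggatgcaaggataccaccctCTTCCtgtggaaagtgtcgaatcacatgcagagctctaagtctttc

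All 3 windows held both kinds of letters, as did 12.1% of the 35116 promoters of the table. The GATA letters alone stood in 20.4% of those promoters and the ETS letters in 65.1%. In GP9 the GATA letters began 67 bases before the start and were followed by ETS letters at 44 and 40 bases, which overlap by 1 base. In GP5 the GATA letters began 75 bases before the start and the ETS letters 46, while in GP1BB they lay 34 and 171 bases before it. These matches are a description of the letters and not a record of bound factors.

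None of the printed promoter windows lay inside a loop anchor. The nearest anchor was 485 bases away from the GP5 window, 6463 bases from the GP1BB window and 10529 bases from the GP9 window. Measured from the annotated gene, whose span at GP9 begins upstream of the start used for the promoter, the nearest anchors lay 735 bases from GP5 (chr3:194394821-194399266), 4845 bases from GP9 (chr3:129054845-129062406) and 5230 bases from GP1BB (chr22:19723539-19724771). For GP1BA (chr17:4932277-4935023) the nearest anchor was 12277 bases away. No anchor overlapped any of the 4 genes, and 3 loops at GP1BA, 1 at GP1BB, 4 at GP9 and 3 at GP5 had the gene between their anchors.

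**Figure D1:**
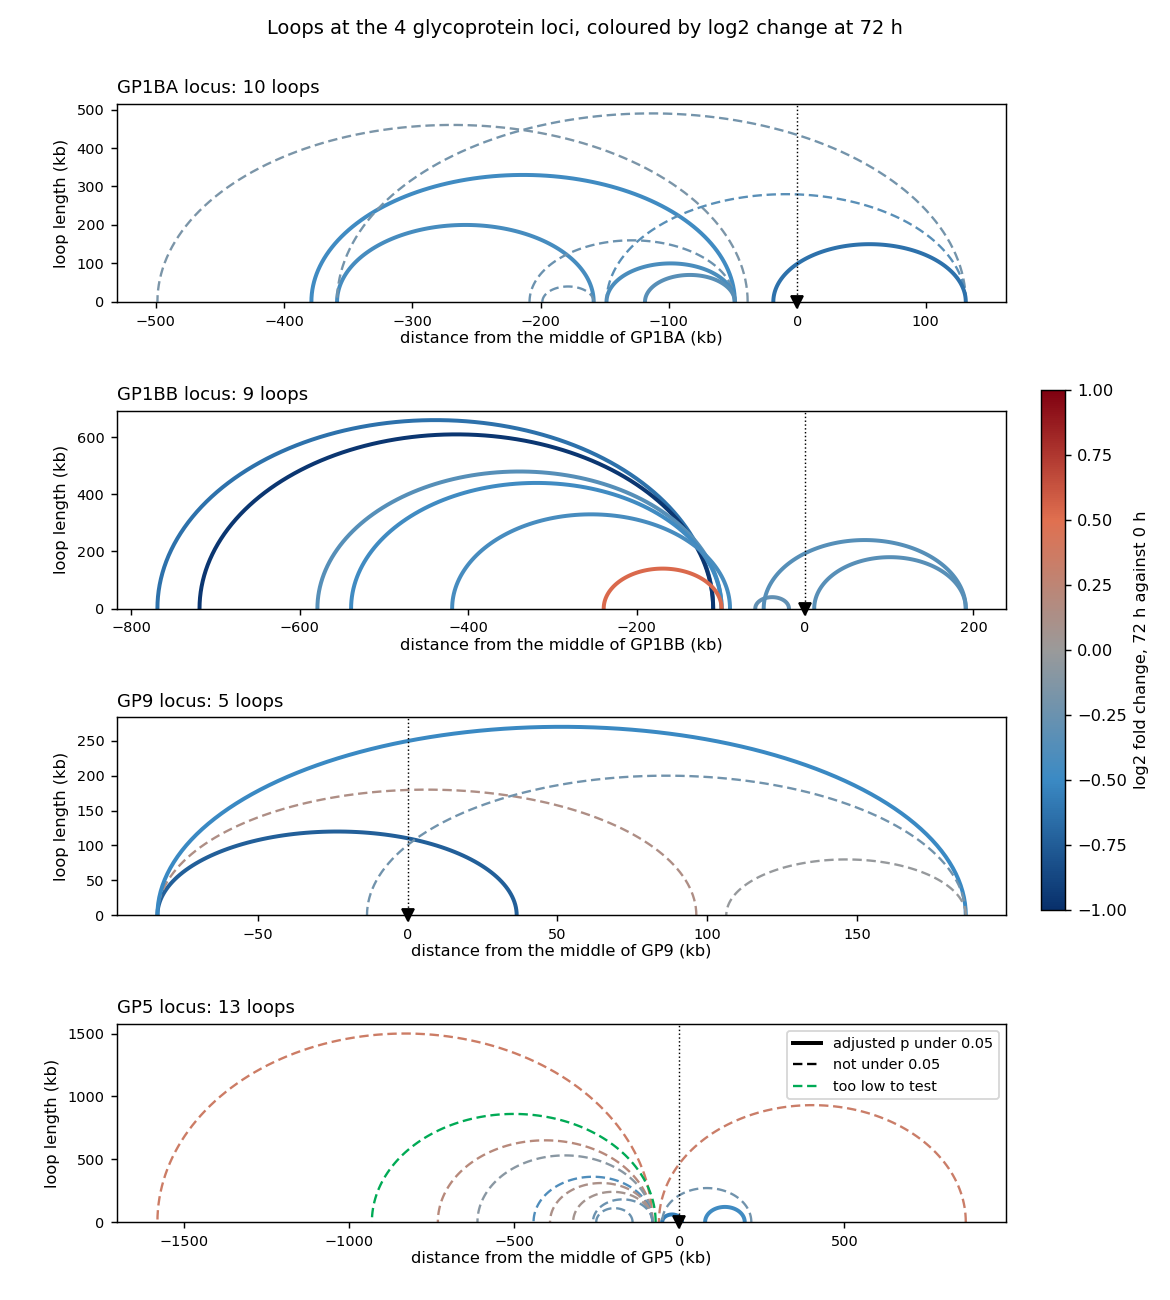
Each arc is 1 of the 37 loops, drawn over the distance of its anchors from the middle of the gene (horizontal axis, kb; black triangle, gene) with a height equal to the loop length (kb). Colour gives the log2 fold change at 72 h against 0 h (blue lower, red higher), solid arcs had an adjusted p under 0.05 in edgeR's quasi-likelihood test, dashed arcs did not, and the green dashed arc was too low to test; the 1 solid red arc is the gained loop at GP1BB.

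The 37 loops were 40 kb to 1500 kb long with a median of 240 kb, against a median of 290 kb over the 24132 loops that had enough counts for a test. They used 51 distinct anchors, of which 12 served more than 1 loop and 20 overlapped no protein-coding gene of the RefSeq table. Loops that share an anchor are not independent of each other. All but 1 of the 37 loops could be tested: loop7955 at GP5, 860 kb long, had a mean raw count of 7.50 per library. The counts behind the others ranged widely, and a single count of 52, close to the median over these loops, has an exact 95% Poisson interval of 38.8 to 68.2, while the lowest count of 2 has one of 0.242 to 7.22 (counting error only).

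After 6 h of PMA, few loops at the 4 loci passed the test. Of the 36 tested loops, 3 were lost and 0 gained (8.33%) against 6.41% called over all tested loops, 2.34% gained and 4.07% lost (edgeR quasi-likelihood test, Benjamini-Hochberg adjusted p under 0.05), so their share was near the background. An unadjusted p under 0.05 was reached by 8 of the 36, against 20.3% of all tested loops. The libraries of the pair of times did not overlap in 8, 4 of them higher and 4 lower, against 10.7%, 4.97% and 5.77% of all tested loops, and 0 of the 3 losses reached a fold change of 1.5, which 2.75% of all tested loops did with an adjusted p under 0.05. Over the 36 loops the median log2 fold change was -0.01, against 0.01 over all tested loops. The 3 early losses were loop29236 at GP1BA and loop7973 and loop7975 at GP5, all of them also lost at 72 h. Both comparisons use the same 0 h libraries, so the later calls are not independent of the early ones. Without 6 h replicate 1 the count was 0, and it was 1 without 6 h replicate 2 and 1 without 0 h replicate 3. DESeq2 called 0 of them, with no adjusted p for 12.

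At 72 h, contacts at these loci were mostly lower. Of the 36 loops, 17 were lost and 1 gained (50%), where 33.6% of all tested loops changed, with 16.9% lost and 16.7% gained, and 21 of the 36 had an unadjusted p under 0.05, against 43.4% (edgeR quasi-likelihood test, Benjamini-Hochberg adjusted p under 0.05). These shares are not matched for count. The 36 loops had a median of the mean raw counts of 52.5, against 29.25 over all tested loops, and stronger loops are called more often. Among all tested loops of similar mean count (0.8 to 1.25 times), the share called at 72 h ran from 20.1% for loop7949 to 74.5% for loop32347. The median log2 fold change was -0.32 against 0.01 over all tested loops, and 29 of the 36 were below 0. The 4 libraries of 72 h lay entirely below the 4 of 0 h in 14 of the loops and entirely above in 1, against 14.1% and 14.2% of all tested loops, or 28.3% together. The changes were small: 4 of the 36 combined an adjusted p under 0.05 with a fold change of at least 1.5, all lower, against 17.4% of all tested loops.

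The losses were spread unevenly. At GP1BB all 9 loops changed, 8 lost and 1 gained. At GP1BA 5 of 10 were lost, at GP9 2 of 5, and at GP5 2 of the 12 that could be tested. On chromosome 22 as a whole 26.1% of the tested loops were lost and 8.50% gained at 72 h, on chromosome 17 30.7% and 7.45%, and on chromosome 3 15.9% and 16.8%, so that loops of the first pair of chromosomes fell more often overall than those of the third. No test of a difference between the loci was made.

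Between 6 h and 72 h, which tests whether the late change differs from the early one, 11 of the 36 loops were lost and 1 gained (33.3%), against 20.5% of all tested loops, 9.81% lost and 10.7% gained (edgeR quasi-likelihood test, adjusted p under 0.05). Among all tested loops of similar mean count, the share called between these times ran from 12.6% for loop7949 to 46.2% for loop32348. The last share rests on only 13 loops, and the next highest was 26.9% for loop32350, from 26 loops. A higher count did not always go with a higher share here. It was 19.9% for loop32344 and 17.9% for loop32349 at GP1BB, against 24.2% for the weaker loop29237 at GP1BA. The median was -0.27 on the log2 scale against 0.00 over all tested loops. The libraries did not overlap in 11 loops, 9 lower and 2 higher, against 19.8%, 9.43% and 10.4%, and 5 of the losses reached a fold change of 1.5, against 11.5% of all tested loops. Of the 18 loops changed at 72 h against 0 h, 11 also differed between 6 h and 72 h, and 7 did not. GP1BB gave 9 of these 12 late changes, and GP1BA, GP9 and GP5 gave 1 each.

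**Figure D2:**
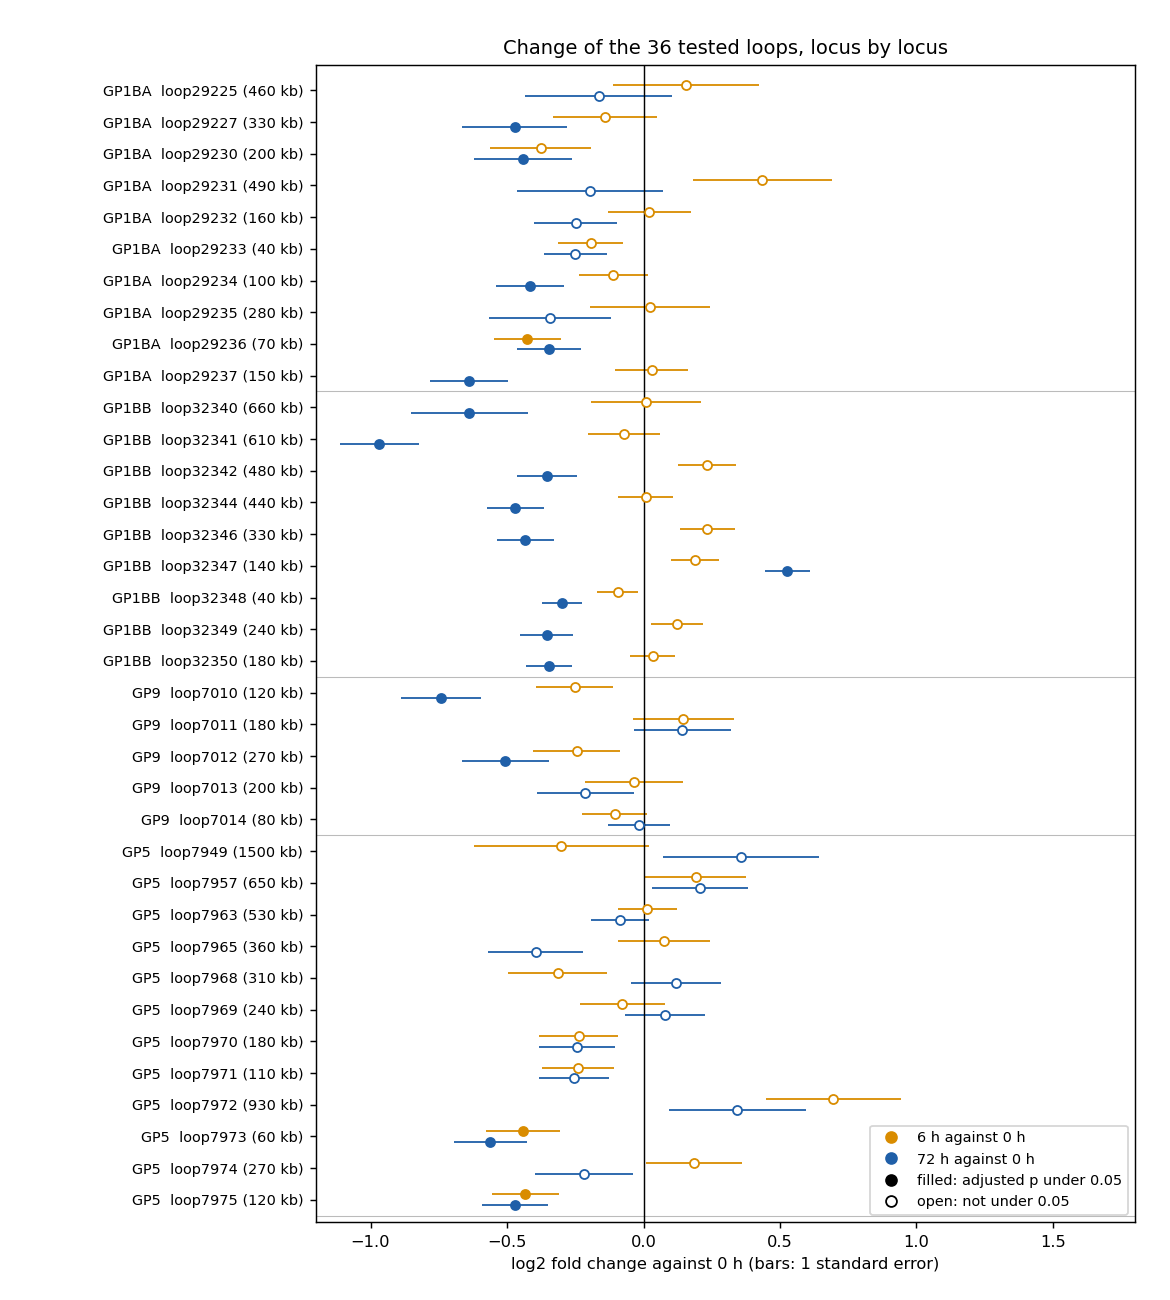
Log2 fold change against 0 h (horizontal axis, bars 1 standard error) of each of the 36 tested loops (rows, grouped by locus, with loop length) at 6 h (orange) and 72 h (blue); filled points had an adjusted p under 0.05. All 9 blue points at GP1BB are filled, 8 of them left of 0, while at GP5 2 of 12 are filled.

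At GP1BA, the ligand-binding subunit, the loop nearest to the gene showed the clearest fall. Loop29237 joins chr17:4910001-4920000, which holds no protein-coding gene, to chr17:5060001-5070000, also without one, and it spans GP1BA. Its normalized counts in libraries 1 to 4 were 64.5, 48.4, 72.8 and 78.5 at 0 h, 62.7, 69.2, 70.8 and 63.9 at 6 h, and 39.8, 43.2, 43.7 and 38.4 at 72 h. The 72 h libraries all lay below every library of both earlier times, which overlapped each other. Their means were 66.0 ± 13.1 (SD, n = 4), 66.7 ± 3.90 (n = 4) and 41.3 ± 1.70 (n = 3). On the log2 scale it changed by 0.03 ± 0.13 (SE) at 6 h (adjusted p = 0.935, edgeR) and -0.64 ± 0.14 at 72 h (1.72e-04), and the step from 6 h to 72 h was -0.67 ± 0.15 (adjusted p = 3.03e-04). Within replicates 1 and 2 alone the change at 72 h was -0.47 (adjusted p = 0.0761).

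The other 9 loops of the GP1BA locus lie mainly upstream, towards PLD2 (phospholipase D2), the chemokine gene CXCL16 and ARRB2 (beta-arrestin 2). All 10 loops of the locus had a negative log2 fold change at 72 h, from -0.64 to -0.16 with a median of -0.34. The busiest anchor, chr17:4880001-4890000 in the kinase gene MINK1, served 4 loops, and 3 of these were lost at 72 h, with changes of the 4 between -0.47 and -0.25.

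Loop29236, 70 kb long, ties this MINK1 anchor to PLD2 (chr17:4810001-4820000) and was the only GP1BA loop changed at 6 h. It had 88.4, 106, 115 and 89.8 normalized counts at 0 h, 71.6, 72.9, 72.2 and 76.0 at 6 h, and 86.7, 79.3, 66.6 and 75.9 at 72 h. Every library at 6 h and 72 h lay below the lowest at 0 h, and the later times overlapped. It changed by -0.43 ± 0.12 (log2) at 6 h (adjusted p = 0.0190, edgeR) and -0.35 ± 0.12 at 72 h (0.0149).

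Both calls depended on single libraries. The adjusted p of loop29236 at 6 h rose to 0.0837 without 0 h replicate 3 and to 0.0515 without 6 h replicate 1, and at 72 h to 0.0630 without 0 h replicate 3 and 0.0611 without 72 h replicate 3. With a correction for loop length the change at 72 h was -0.22 (adjusted p = 0.139). All tested loops of similar length (0.8 to 1.25 times) had a median of -0.11 at 6 h and -0.17 at 72 h.

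The strongest loop of the GP1BA locus, loop29233, is 40 kb long and joins the anchor with MED11, CXCL16 and ZMYND15 to TM4SF5. Its means were 100.2 ± 9.12 at 0 h, 88.2 ± 10.8 at 6 h and 83.8 ± 5.40 at 72 h. The libraries overlapped, and the change of -0.25 ± 0.12 at 72 h did not pass the test (edgeR adjusted p = 0.0812; 0.0298 without 0 h replicate 2 and 0.0327 with no filter on low counts). The longest, loop29231, spans GP1BA over 490 kb and is weak. Its means were 12.2 ± 3.01, 16.6 ± 3.28 and 10.4 ± 3.28, and no comparison of it passed the test (adjusted p = 0.328 at 6 h, 0.603 at 72 h and 0.0663 between 6 h and 72 h). The last value became 0.0463 without 6 h replicate 4 and 0.0350 without 72 h replicate 1, with changes of -0.74 and -0.83 against -0.63.

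At GP1BB, which encodes the small beta chain, every loop of the locus changed at 72 h and none at 6 h, when 3 of the 9 had an unadjusted p under 0.05 (edgeR). The 9 loops were strong, with a median of the mean raw counts of 133.75 against 29.25 over all tested loops. Stronger loops are called more often: among all tested loops of similar mean count (0.8 to 1.25 times), the share called at 72 h ranged from 28.5% for the weakest of the 9 to 74.5% for loop32347. Counts of different loci also carry the copy number of the chromosome in this aneuploid line, which was not measured here.

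The loops fall into an upstream fan and a part around the gene. The fan consists of 6 loops that all end within 30 kb (chr22:19610001-19640000), a stretch whose anchors hold no protein-coding gene, and reach 140 kb to 660 kb upstream. At 72 h the shortest of the 6 was gained and the 5 longer ones were lost. That grouping was made after the values were seen.

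The gained loop, loop32347, joins CDC45 (chr22:19480001-19490000), a part of the replicative helicase, to chr22:19620001-19630000 over 140 kb. Its normalized counts were 238, 223, 239.6 and 246 at 0 h, 266, 250.5, 280.2 and 287 at 6 h, and 369, 332, 339 and 325 at 72 h. The times followed each other without overlap, with 0 h lowest and 72 h highest. The means were 237 ± 9.57 (n = 4), 271 ± 16.3 (n = 4) and 344 ± 21.2 (n = 3). PMA changed it by 0.19 ± 0.09 (log2) at 6 h (adjusted p = 0.191, edgeR) and 0.53 ± 0.08 at 72 h (adjusted p = 1.12e-07), with a step of 0.34 ± 0.08 from 6 h to 72 h (adjusted p = 0.00153). With the length correction the change at 6 h was 0.25 (adjusted p = 0.0449), and within replicates 3 and 4 the step from 6 h to 72 h was 0.22 (adjusted p = 0.120).

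Next to it in the fan, loop32346 reaches from chr22:19630001-19640000 to chr22:19300001-19310000 over 330 kb, and it moved the other way. It had 146, 129, 144 and 139 normalized counts at 0 h, 182, 164, 161 and 147 at 6 h, and 104, 98.4, 104 and 105 at 72 h. The 6 h libraries were the highest and the 72 h libraries the lowest, with no overlap between any of the times. Its log2 fold change was 0.23 ± 0.10 at 6 h, which did not pass the test (edgeR adjusted p = 0.156), and -0.43 ± 0.11 at 72 h (adjusted p = 5.99e-04). The step from 6 h to 72 h was -0.67 ± 0.10 (adjusted p = 4.65e-07).

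Because both loops are counted in the same libraries, their ratio needs no scaling. The raw count of loop32347 over that of loop32346 was 1.64, 1.73, 1.66 and 1.77 in the 0 h libraries, 1.46, 1.53, 1.74 and 1.95 at 6 h, and 3.56, 3.38, 3.26 and 3.08 at 72 h. The 72 h ratios all lay above those of the earlier times, which overlapped. The mean ratio was 1.70 ± 0.0613 (n = 4), 1.67 ± 0.222 (n = 4) and 3.37 ± 0.196 (n = 3). Against the 2 loops that share the anchor chr22:19620001-19630000, loop32344 to CLTCL1 (a clathrin heavy chain) and loop32342 to ESS2 and GSC2, the mean ratio went from 1.60 at 0 h to 3.29 at 72 h and from 1.89 to 3.76. The loops for these ratios were picked after their values were seen, so the ratios are a description.

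The longest-reaching loops of the fan lost most. Loop32341, from chr22:19000001-19010000 to chr22:19610001-19620000 over 610 kb, had 74.6, 70.3, 76.5 and 58.0 normalized counts at 0 h, 57.8, 75.7, 73.6 and 60.3 at 6 h, and 28.3, 43.2, 28.1 and 40.2 at 72 h. The 72 h libraries all lay below every library of 0 h and 6 h, and those of 0 h and 6 h overlapped. Its log2 fold change at 72 h, -0.97 ± 0.15, was the lowest of the 36 loops (edgeR adjusted p = 2.81e-08), and the change at 6 h was -0.07 ± 0.13 (adjusted p = 0.822). Tested loops of similar length had a median of 0.13 at 72 h.

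Loop32340, the longest of the locus at 660 kb, uses the same inner anchor and was weaker. It had 26.8, 24.7, 20.1 and 22.7 normalized counts at 0 h, 31.4, 28.0, 22.6 and 12.1 at 6 h, and 12.4, 19.1, 12.5 and 15.2 at 72 h. The 72 h libraries lay below those of 0 h but overlapped those of 6 h, where library 4 was the lowest of all 12. The log2 fold change at 72 h was -0.64 ± 0.22 (edgeR adjusted p = 0.0145) and the step from 6 h was -0.65 ± 0.22 (adjusted p = 0.0252). The first was not past the threshold without 0 h replicate 1 (adjusted p = 0.0655) or without 72 h replicate 1 (0.0515). The second was not past it when 6 h replicate 1 (0.165) or 2 (0.0902) or 72 h replicate 1 (0.0814) or 3 (0.0617) was left out. Within replicates 1 and 2 the step was -0.87 (edgeR adjusted p = 0.0322), and within replicates 3 and 4 it was -0.24 (0.711).

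Around the gene itself, 3 loops shared the region between the fan and TXNRD2, which encodes the mitochondrial thioredoxin reductase. Loop32350 has the anchor nearest to GP1BB, chr22:19730001-19740000, downstream of the gene, and joins it to TXNRD2 (chr22:19910001-19920000). Its normalized counts were 364, 359.8, 306 and 304 at 0 h, 371, 356, 293 and 347 at 6 h, and 279, 270.1, 245 and 259.8 at 72 h. The 72 h libraries all lay below every earlier library, while 0 h and 6 h overlapped. Its changes were 0.03 ± 0.08 (log2) at 6 h (adjusted p = 0.864, edgeR) and -0.35 ± 0.08 at 72 h (5.19e-04).

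A second loop to the same TXNRD2 anchor, loop32349, starts on the other side of GP1BB and so holds the gene between its anchors. Its change at 72 h, -0.36 ± 0.10, had nearly the same size (edgeR adjusted p = 0.00217), and the 2 loops share an anchor. The gene thus lay inside the one and outside the other.

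Loop32348, 40 kb long and upstream of GP1BB, was the strongest loop of the 4 loci. It had 566, 571, 587 and 541 normalized counts at 0 h, 535, 523, 536 and 525 at 6 h, and 515, 445, 451 and 427 at 72 h. The times did not overlap, with 0 h highest and 72 h lowest. The log2 fold change was -0.09 ± 0.07 at 6 h (adjusted p = 0.498, edgeR) and -0.30 ± 0.07 at 72 h (adjusted p = 6.99e-04).

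Short loops were lower at 72 h in the whole table. All tested loops of 0.8 to 1.25 times its length had a median of -0.22 at 72 h, with 52.9% of them called, and with the length correction its own change at 72 h was -0.10 (adjusted p = 0.234). The step from 6 h to 72 h, -0.20 ± 0.08 (adjusted p = 0.0395), was no longer past the threshold without 6 h replicate 1 (0.0813) or 3 (0.0670), or without 72 h replicate 2 (0.116), 3 (0.0774) or 4 (0.132).

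**Figure D3:**
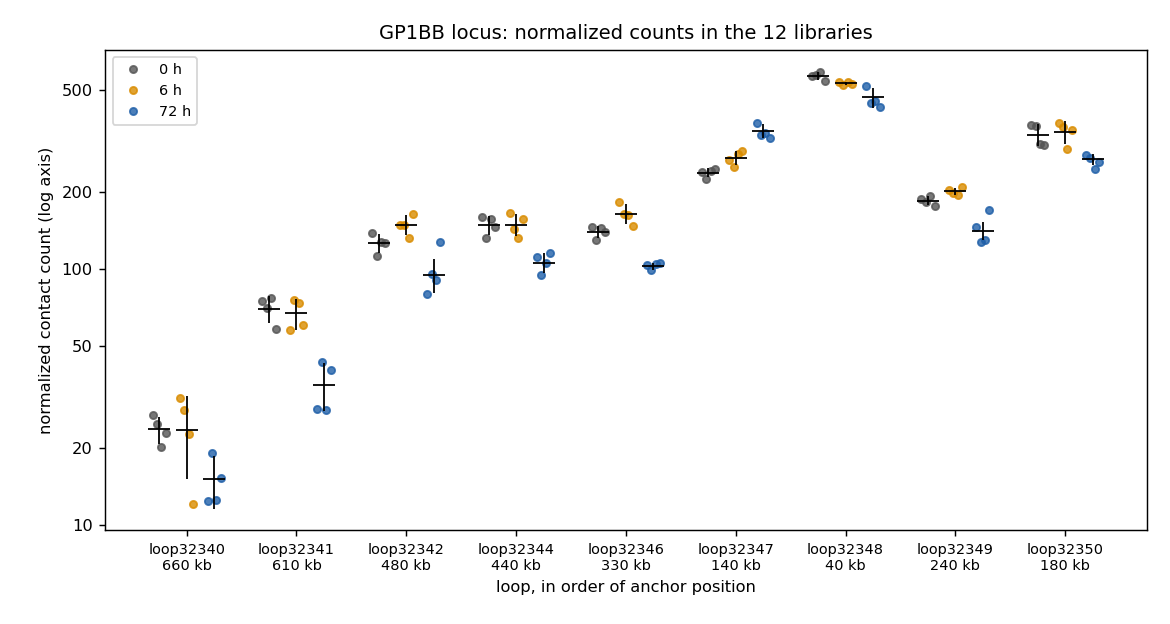
Normalized contact counts (vertical log axis) of the 9 loops at GP1BB, in order of anchor position with their lengths, at 0 h (grey), 6 h (orange) and 72 h (blue). Points are the 4 libraries of each time, black marks are the mean and SD (n = 4, 4 and 3); loop32347 rises from 237 to 344, while loop32341 falls from 69.8 to 35.2.

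At GP9, glycoprotein IX, 5 loops ran between CFAP92 upstream and COPG1, a coat protein gene of Golgi transport vesicles, downstream. Loop7010 joins the CFAP92 anchor (chr3:128970001-128980000) across GP9 to the small GTPase gene RAB43 (chr3:129090001-129100000). Its normalized counts were 60.8, 68.4, 56.5 and 60.3 at 0 h, 51.0, 54.2, 45.3 and 54.3 at 6 h, and 38.0, 40.2, 34.3 and 32.1 at 72 h. The times did not overlap, with 0 h highest and 72 h lowest. The means were 61.5 ± 4.98 (n = 4), 51.2 ± 4.23 (n = 4) and 37.1 ± 3.55 (n = 3).

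The log2 fold change of loop7010 was -0.25 ± 0.14 at 6 h, which did not pass the test (edgeR adjusted p = 0.304), and -0.74 ± 0.15 at 72 h (adjusted p = 1.85e-05). The step from 6 h to 72 h was -0.49 ± 0.16 (adjusted p = 0.0152; 0.0524 without 72 h replicate 4). Tested loops of similar length had a median of -0.09 at 72 h.

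The loop with the anchor nearest to GP9 was not among those that changed. Loop7013 joins EFCC1 (chr3:129040001-129050000), just upstream of GP9, to COPG1 (chr3:129240001-129250000). It had 29.7, 36.1, 41.4 and 28.4 normalized counts at 0 h, 36.3, 29.0, 39.6 and 26.5 at 6 h, and 24.8, 19.1, 41.6 and 29.5 at 72 h. All 3 times overlapped, and the 72 h libraries held both the lowest and the highest value of the 12. The log2 fold change at 72 h was -0.21 ± 0.18 (edgeR adjusted p = 0.366) and did not pass. Leaving out 1 library in turn moved it from -0.42 (without 72 h replicate 3) to -0.09 (without 72 h replicate 2), and it passed in none of these fits.

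Loop7012, the longest at GP9 with 270 kb, links the CFAP92 and COPG1 anchors around the gene. Its counts were 44.2, 53.2, 50.2 and 43.2 at 0 h, 31.4, 42.1, 42.5 and 44.6 at 6 h, and 29.2, 33.1, 45.8 and 25.0 at 72 h. At 72 h, library 3 reached into the 0 h range and the other 3 lay below it. The change at 72 h was -0.51 ± 0.16 (edgeR adjusted p = 0.00843), or -0.40 without 72 h replicate 4 (0.0625).

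The strongest loop of the GP9 locus, loop7014, lies downstream of the gene between the CNBP and ISY1 anchor and COPG1, 80 kb apart. Its means were 97.3 ± 13.9 at 0 h, 90.7 ± 10.1 at 6 h and 97.3 ± 4.90 at 72 h, and its log2 fold change at 72 h was -0.02 ± 0.11 (edgeR adjusted p = 0.932). The remaining loop of the locus, loop7011 from CFAP92 to ISY1, had a change of 0.14 ± 0.18 at 72 h.

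At GP5, glycoprotein V, 13 loops covered lengths from 60 kb to 1500 kb, and 2 of the 12 tested were lost at both 6 h and 72 h. Loop7973 is the one with an anchor beside the gene. It joins CPN2 (chr3:194340001-194350000), which encodes a subunit of carboxypeptidase N, to chr3:194400001-194410000 in ATP13A3, with GP5 between the anchors. Its normalized counts were 70.3, 80.7, 79.0 and 76.2 at 0 h, 54.9, 48.6, 42.5 and 76.0 at 6 h, and 52.2, 61.2, 49.9 and 41.1 at 72 h.

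Every 72 h library of loop7973 lay below every 0 h library, whereas at 6 h library 4 stood at the level of 0 h and the other 3 below it. The means were 76.5 ± 4.59 (n = 4), 55.5 ± 14.6 (n = 4) and 53.0 ± 7.90 (n = 3). Its log2 fold change was -0.44 ± 0.14 at 6 h (adjusted p = 0.0310, edgeR) and -0.56 ± 0.13 at 72 h (adjusted p = 4.57e-04), and the difference between 6 h and 72 h, -0.12 ± 0.15, did not pass the test (adjusted p = 0.598).

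The call of loop7973 at 6 h depended on single libraries. It was not past the threshold without 0 h replicate 2 (adjusted p = 0.0641), 3 (0.0624) or 4 (0.0504), or without 6 h replicate 1 (0.0701), 2 (0.137) or 3 (0.112), nor with total-count scaling (0.0544) or the length correction (0.171). The call at 72 h held in each of these settings and ended within replicates 1 and 2 alone, where the change was -0.41 (0.0839).

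Loop7975 lies beyond GP5, between ATP13A3 (chr3:194470001-194480000), a P-type transport ATPase, and TMEM44 (chr3:194590001-194600000). It had 118, 93.0, 103 and 79.6 normalized counts at 0 h, 71.6, 64.5, 73.6 and 86.9 at 6 h, and 79.6, 67.3, 78.0 and 61.6 at 72 h. Library 4 of 0 h, the lowest of its group, met the highest libraries of the later times, and the other 3 of 0 h lay above all of them. In log2 units it changed by -0.43 ± 0.12 at 6 h (adjusted p = 0.0181, edgeR) and -0.47 ± 0.12 at 72 h (0.00105). At 6 h the adjusted p was 0.200 without 0 h replicate 1, 0.0518 without 6 h replicate 1 and 0.0927 without 6 h replicate 2. The 6 h change was -0.65 within replicates 1 and 2 (adjusted p = 0.0151, edgeR) and -0.16 within replicates 3 and 4 (0.742).

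The largest hub of the 4 loci lay at GP5. The anchor chr3:194310001-194320000, on the CPN2 side of GP5 and without a protein-coding gene, served 7 loops of 180 kb to 1500 kb that run away from GP5. At 72 h against 0 h, 0 of the 7 passed edgeR's test, 1 had an unadjusted p under 0.05 and DESeq2 called 0, and their log2 fold changes lay on both sides of 0, from -0.40 to 0.36.

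The strongest of them, loop7963 over 530 kb, had means of 119 ± 8.15 at 0 h, 120.2 ± 14.8 at 6 h and 109 ± 8.40 at 72 h. Its change at 72 h was -0.09 ± 0.11 (edgeR adjusted p = 0.566). The longest, loop7949 over 1500 kb, reaches MB21D2 and was near the lower limit of what could be tested, with means of 8.23 ± 3.38, 6.29 ± 3.22 and 10.8 ± 1.60. Its change at 72 h was 0.36 ± 0.29 (adjusted p = 0.339), where tested loops of similar length had a median of 0.49.

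Loop7965, 360 kb long, was the 1 hub loop with a change past the threshold in any comparison. Its counts were 32.6, 49.4, 38.9 and 35.2 at 0 h, 38.2, 39.3, 48.1 and 39.8 at 6 h, and 19.5, 28.1, 20.8 and 46.4 at 72 h. At 72 h, 3 libraries lay below all earlier ones and library 4 lay among the highest. The step from 6 h to 72 h was -0.47 ± 0.18 (edgeR adjusted p = 0.0455), and the change against 0 h, -0.40 ± 0.17, did not pass (adjusted p = 0.0671). That change was -0.42 with the replicate number as a block (adjusted p = 0.0379) and -0.41 with a term for replicates 1 and 2 against 3 and 4 (0.0487), both past the threshold. It was -0.73 within replicates 1 and 2 (0.0173) and -0.09 within replicates 3 and 4 (0.833). Without 72 h replicate 4 it was -0.73 (0.00210), and without 0 h replicate 1 it was -0.51 (0.0356).

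That step was lost without any 1 of 7 libraries: 6 h replicate 1 (adjusted p = 0.0569), 2 (0.0560), 3 (0.118) or 4 (0.0644), or 72 h replicate 1 (0.246), 2 (0.0842) or 3 (0.161). The change against 0 h was -0.73 without 72 h replicate 4 (adjusted p = 0.00210) and -0.51 without 0 h replicate 1 (0.0356). Over all loops, libraries 3 and 4 of 72 h did not differ beyond sampling noise, whereas here they had 20.8 and 46.4.

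Summed over its loops, each locus held on average a smaller part of the contacts of all loops at 72 h than at 0 h. Hi-C contacts outside the loops do not enter this share. At GP1BB the sum was 1725 ± 48.8 per 1000000 loop contacts at 0 h, 1827 ± 59.2 at 6 h and 1517 ± 50.7 at 72 h, and the 72 h libraries lay below all others. At GP1BA it was 476 ± 26.9, 440.3 ± 29.2 and 371 ± 2.36, again with every 72 h library below every earlier one. At GP9 (254 ± 14.7, 238 ± 11.1 and 218 ± 4.54) and GP5 (607 ± 37.8, 559.9 ± 22.4 and 535 ± 21.9) the libraries of 72 h overlapped those of 0 h.

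The ratio of 72 h to 0 h was 0.780 at GP1BA, 0.879 at GP1BB, 0.859 at GP9 and 0.881 at GP5. Taken per contacts in loops of the same chromosome, the ratios were 0.872, 0.938, 0.836 and 0.858. These sums are dominated by the strong loops of each locus and carry no test. In bulk Hi-C, a contact that is less frequent in all cells and one that is lost in some of the cells cannot be told apart.

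**Figure D4:**
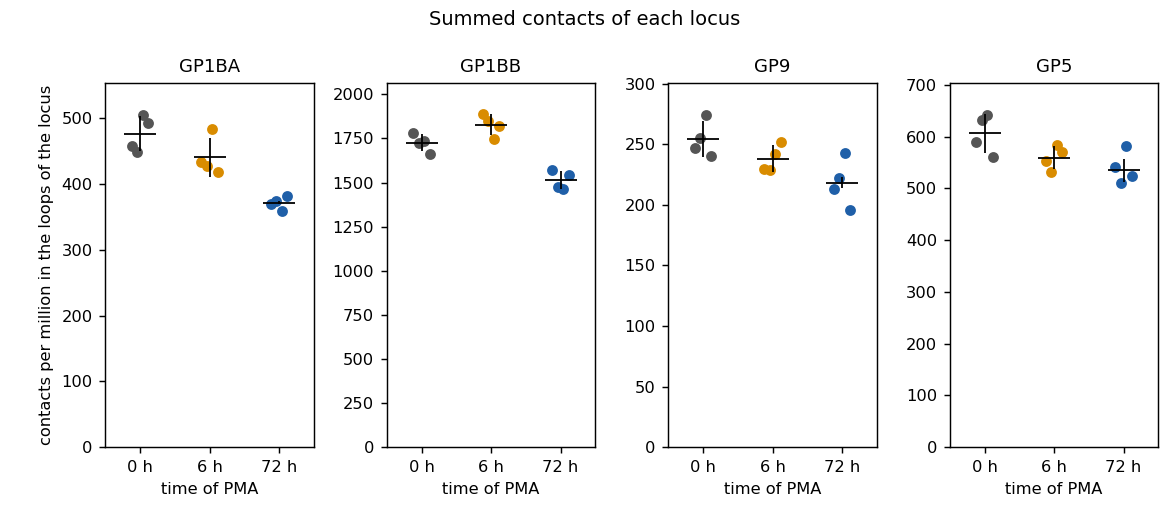
Contacts in the loops of each locus per 1000000 contacts of the library summed over all loops (vertical axis from 0) at 0 h, 6 h and 72 h. Points are the 4 libraries, black marks the mean and SD (n = 4, 4 and 3). The means of GP1BB stand at 1725, 1827 and 1517, and those of GP1BA at 476, 440.3 and 371.

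The authors' deposited table classes 2 of the 37 loops as lost, loop32341 at GP1BB and loop7010 at GP9, 0 as gained and 35 as static. It gives an adjusted p-value, from 1 test over the time points, for 32 of them, and 10 of these are under 0.05. All 10 were also past the threshold at 72 h against 0 h in the edgeR test used here, which is made on the same counts and so is not independent. The shares of all loops in these classes or under 0.05 were not counted, so these numbers are a description only. The gained loop32347 is static in the authors' deposited table, whose rule for the classes is not given in the sources used here.

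The genes that act with the complex had both gained and lost loops of their own. A list of 39 genes was taken, made of receptors and signalling molecules, granule and shape genes, and regulators; 27 of them had an anchor of a tested loop, 68 loops in all. At 72 h 15 of the 68 were gained and 14 lost (42.6%, against 33.6% of all tested loops; edgeR adjusted p under 0.05), with a median log2 fold change of 0.00, while the loops of the receptor's own loci had 1 gained and 17 lost of 36. At 6 h 1 was gained and 4 were lost (7.35%, near the 6.41% of all tested loops).

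Among 36 loops of receptors and signalling genes, 5 were gained and 5 lost at 72 h (27.8%, below the 33.6% of all tested loops). Of 5 tested loops at VWF, the ligand of the complex, 1 rose, loop22960 by 0.48 on the log2 scale (edgeR adjusted p = 0.00133), and the other 4 had changes of 0.12 to 0.46 that did not pass. The loop at FLNA, whose product filamin A binds the tail of the alpha chain, fell at 6 h by 0.40 (loop33878, adjusted p = 0.0446), and at 72 h its change of -0.21 did not pass (adjusted p = 0.197). Of 8 loops at granule and shape genes, 4 were lost and 0 gained (50%, against 16.9% of all tested loops lost and 16.7% gained), among them 2 loops at MYH9, the nonmuscle myosin heavy chain of giant-platelet disorders, with -0.49 and -0.48.

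Of 24 tested loops at regulators, 10 were gained and 5 lost at 72 h (62.5%, against 33.6% of all tested loops). At FLI1, the ETS factor that acts on these promoters, loop22798 rose by 1.26 and loop22808 by 0.61 (edgeR adjusted p under 0.05 for both). At GFI1B, a transcriptional repressor that acts in the megakaryocyte and erythroid lineages, loop19825 had -0.53. At RUNX1, another factor of the lineage, 3 of 11 tested loops were gained and 3 lost. No test of a difference between genes was made. The named loops of this list were chosen for the roles of their genes after earlier results of these data were known, and no test of the list as a set was made.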

How the data were processed

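In situ Hi-C contacts were measured in K562 cells at 0 h, 6 h and 72 h of PMA. The authors deposited 1 table with raw contact counts per loop in 30 columns, 1 per technical replicate, together with log2 fold changes, an adjusted p-value and a class for each loop, per the file headers. Anchor positions in the deposited table start from 0 and are given here counted from 1, in hg38. The submitters' processing notes name Juicer 1.5.6, DESeq2, DESeq and hg38 without their roles, and the loop caller is not given in the sources used here.

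Counts of technical replicates and sequencing runs were summed into 12 libraries. edgeR 4.0.16 in R 4.3.3 (filterByExpr with a minimum count of 10 and a minimum total of 15, TMM scaling, quasi-likelihood test, prior count 2) was fitted to all 24132 loops that passed the filter, with 9782 put aside, in 1 model of the 3 times without covariates. P-values were adjusted by the Benjamini-Hochberg method over all tested loops, and adjusted p under 0.05 is called gained or lost. Standard errors of log2 fold changes were derived from the F statistic of the test (change over the square root of F). The script was tested on simulated counts, with 200 of 24132 loops changed at 72 h. It recovered 83% of the 2-fold changes and 37% of the 1.5-fold changes, and 4 of its 124 calls were false. In the data 33.6% of the loops were called at 72 h, which makes the adjusted threshold less strict there. The simulation also held no replicate sets. These shares thus check the script and do not give the power of the 72 h test.

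Loops named with values are those with an anchor within 10 kb of the gene of their locus, the changed loop with the smallest p in each locus, comparison and direction, and the strongest and longest loop of each locus; loop32349, loop32344, loop32342 and loop7011 were added after their values were seen. The members, gene lists and rules were chosen with earlier results of these data known. Gene names and positions come from a RefSeq table of GRCh38.p14. Alternatives were DESeq2 1.42.0, other scalings, no filter, a length correction (loess, span 0.3), a replicate block, a term for replicates 1 and 2 (3 technical replicates each) against 3 and 4 (2 each), either of these sets alone, summed near-identical libraries, a fold of 1.5, other windows and each library left out. The GP1BA promoter and the sequences of the anchors were not used here.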

Additional observations from a re-analysis of the deposited data

Results flagged for a closer look

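Over the named loops and the contact sums of the 4 loci, 54 groups of 4 libraries at 0 h and 6 h were examined for a single library far from the others by Dixon's criterion, and 2 were found where chance alone gives 2.7. The 72 h libraries, counted as 3 samples, were not examined in this way. Loop7949, the longest loop at GP5, had 13.3 normalized counts in 0 h replicate 2, against 6.27 to 6.82 in the other 0 h libraries. Loop7965 had 48.1 in 6 h replicate 3, against 38.2 to 39.8 in the other 6 h libraries.

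In 12 named loops the change at 72 h differed from that at 6 h by the direct test between these times (edgeR quasi-likelihood test, Benjamini-Hochberg adjusted p). Loop32347 at GP1BB had a positive difference of 0.34 on the log2 scale (adjusted p = 0.00153). The 8 other GP1BB loops here had negative ones, -0.90 for loop32341 (2.47e-06), -0.67 for loop32346 (4.65e-07), -0.65 for loop32340 (0.0252), -0.59 for loop32342 (2.40e-05), -0.48 for loop32344 (4.15e-04) and for loop32349 (1.06e-04), -0.38 for loop32350 (3.78e-04) and -0.20 for loop32348 (0.0395). At the other genes it was -0.67 for loop29237 beside GP1BA (3.03e-04), -0.49 for loop7010 across GP9 (0.0152) and -0.47 for loop7965 near GP5 (0.0455).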

How the results depend on the processing

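No alternative turned the direction of a named loop that had passed the threshold. The count of changed loops was 3 at 6 h and 18 at 72 h against 0 h, and 12 between 6 h and 72 h. At 6 h it was 0 with DESeq2, 1 with the length correction (a gain, loop32347), 1 within replicates 1 and 2, 0 within replicates 3 and 4, and 0 with a fold of at least 1.5 (edgeR gave 8 loops at an unadjusted p under 0.05). At 72 h it was 11 within replicates 1 and 2, 10 within replicates 3 and 4, 4 with the fold limit and 8 of 14 with both anchors inside the window. Between 6 h and 72 h it was 7 within replicates 3 and 4, 5 with the fold limit and 4 of 14 with both anchors inside. Leaving out 1 library in turn gave 0 to 3, 14 to 19 and 9 to 12 changed loops. Summing the 72 h replicates 3 and 4 gave 3, 18 and 11. Summing replicates 3 and 4 at every time gave 3, 17 and 11. The replicate number as a block gave 3, 19 and 12, the added loop at 72 h being loop7965; the correlations of same-numbered libraries did not all exceed 0.1, so the numbers were not taken as pairs. Per contacts in loops of the same chromosome, the ratio of 72 h to 0 h was 0.872 in place of 0.780 at GP1BA, 0.938 in place of 0.879 at GP1BB and 0.836 in place of 0.859 at GP9. Of the named loops changed at 72 h, 6 of 15 stayed past the threshold in every alternative other than the fold limit, and 2 of these also past that limit; the window rules apply to counts only. DESeq2 called 13 of the 36 loops at 72 h against 0 h, 1 gained and 12 lost, and 20.6% of all tested loops. Between 6 h and 72 h it called 8, 1 gained and 7 lost, and 8.24% of all tested loops. With DESeq2 the adjusted p at 72 h was 0.0532 for loop29236, 0.0778 for loop32340 and 0.0523 for loop7012, and between 6 h and 72 h it was 0.0736 for loop7010, 0.0552 for loop32348, 0.125 for loop32340 and 0.164 for loop7965, all with the same sign. Within replicates 1 and 2 the change of loop32348 at 72 h was -0.25 (adjusted p = 0.0973), and within replicates 3 and 4 that of loop7975 was -0.38 (0.102) that of loop7012 -0.41 (0.208), that of loop32342 -0.20 (0.342) and that of loop32349 -0.28 (0.0945). With the 72 h replicates 3 and 4 summed, the step of loop32348 between 6 h and 72 h was -0.19 (0.0921). The cause of these shifts was not tested, beyond the fewer libraries or loops that some settings hold by construction. Low counts limit the long loops of GP1BA and GP5.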
